A study of Homo sapiens with 4 samples.

Results

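The Notch genes described here are 10 rows of each deposited table, out of 43622 genes, taken by symbol. They are the receptors NOTCH1, NOTCH2 and NOTCH3, the ligands JAG1, JAG2 and DLL1, and the target genes HES1, HEY1, HES4 and NRARP. All 10 were found in the tables, and 9 of them (all but DLL1) passed the filter on low counts. The genes were compared in 4 messenger RNA libraries from 2 established human lung adenocarcinoma lines, A549 and H1993. Each line was grown as spheroids, clusters of cells that the study labels as cancer stem cells, and as an adherent culture of attached cells. Each combination of line and culture was 1 library, so no group has a replicate, and no genotype, drug or time differed by label.

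Notch is a signalling pathway between touching cells. A Jagged or Delta ligand on one cell binds a Notch receptor on its neighbour, the receptor is cut by an ADAM protease and then by gamma-secretase, and its freed intracellular part enters the nucleus. There it joins the DNA-binding protein RBPJ and a Mastermind protein to switch on genes such as the HES and HEY repressors and NRARP, which feeds back on the pathway. In the airway, Notch is known for balancing secretory against multiciliated and neuroendocrine cells.

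Where the data bear on RBPJ, the sequences are those of the target gene promoters, from 250 bases before to 50 after the transcript start in RefSeq (GRCh38.p14). Of the 10 genes, 8 had a promoter in that table. The 3 targets below are shown because their levels in the libraries differed in direction and size although all are described as Notch targets. Capitals mark TGGGAA, the core of the RBPJ site, searched on both strands. HES1 lies on the plus strand (chr3:194135898-194136197), HES4 on the minus strand (chr1:1000048-1000347) and NRARP on the minus strand (chr9:137302222-137302521).
HES1: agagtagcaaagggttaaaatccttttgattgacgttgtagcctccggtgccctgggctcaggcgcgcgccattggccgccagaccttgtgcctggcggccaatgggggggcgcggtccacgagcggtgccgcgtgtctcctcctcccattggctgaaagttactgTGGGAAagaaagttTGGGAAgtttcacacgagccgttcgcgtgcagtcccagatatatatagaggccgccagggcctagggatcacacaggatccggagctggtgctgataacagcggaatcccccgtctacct
HES4: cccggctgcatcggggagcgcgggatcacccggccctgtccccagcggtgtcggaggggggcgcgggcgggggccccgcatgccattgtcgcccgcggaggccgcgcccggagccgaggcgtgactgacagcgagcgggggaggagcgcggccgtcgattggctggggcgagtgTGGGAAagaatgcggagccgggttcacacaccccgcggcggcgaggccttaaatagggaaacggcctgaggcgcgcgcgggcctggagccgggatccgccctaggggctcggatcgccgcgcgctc
NRARP: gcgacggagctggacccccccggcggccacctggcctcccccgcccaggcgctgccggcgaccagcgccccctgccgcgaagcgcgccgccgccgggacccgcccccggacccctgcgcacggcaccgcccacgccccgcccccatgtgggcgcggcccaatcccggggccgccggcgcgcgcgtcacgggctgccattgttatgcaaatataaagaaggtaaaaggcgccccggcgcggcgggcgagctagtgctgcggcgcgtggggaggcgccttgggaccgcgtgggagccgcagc

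The HES1 promoter held 2 matches to TGGGAA, from -84 to -79 and from -70 to -65 relative to the transcript start, the first of which is part of a match to the longer GTGGGAA. The HES4 promoter held 1 match, from -76 to -71, and it too was part of GTGGGAA. The NRARP promoter held 0 matches in this window. Among 35116 promoters of the same length, 24.0% held at least 1 TGGGAA, 3.80% at least 2 and 6.25% at least 1 GTGGGAA. The 5 other promoters in the table (NOTCH1, NOTCH2, NOTCH3, JAG1 and JAG2) held 0 matches. The N-box CACNAG, a letter pattern bound by HES proteins, occurred at 4 places in the HES1 promoter, 1 in that of NRARP and 0 in that of HES4, and in 38.0% of all promoters. The E-box CANNTG, bound by many helix-loop-helix proteins, occurred at 2 places in the NRARP promoter and at 0 in those of HES1 and HES4, against 68.7% of all promoters with at least 1. These matches are letters in a window and were not tested as binding sites.

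The libraries held 15331121 to 17681746 exonic reads. The library labelled H1993 adherent was less like H1993 spheroids than like either A549 library. Across 14759 autosomal genes, which are not independent replicates, Pearson's r of its log2 levels was 0.947 with A549 adherent cells, 0.869 with A549 spheroids and 0.845 with H1993 spheroids, beside 0.897 within the A549 pair. It lay 2-fold or more from A549 adherent cells in 13.2% of these genes, and from H1993 spheroids in 35.6%. NKX2-1, a lung transcription factor, ran with the label, with 0 reads in both A549 libraries, 13 in H1993 spheroids and 12 in the library labelled H1993 adherent. Whether the label holds was not tested, and the library is named by its label throughout. Of the lung epithelial markers, KRT8 stood at 920 to 2708 TPM (a share of all transcripts that allows for exon length) over the 4 libraries and EPCAM at 20.7 to 439 TPM. The surfactant genes SFTPB and SFTPC had 0 to 2 reads in each library. The summed level of 8 epithelial markers was 3615 TPM in A549 spheroids and 6486 TPM in A549 adherent cells, 9227 TPM in H1993 spheroids and 2186 TPM in the library labelled H1993 adherent. That of 6 mesenchymal markers was 663, 422, 88.0 and 440 TPM in the same order. The part of these differences in the Notch results was not tested.

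NOTCH3 was the most abundant of the receptors in 3 of the 4 libraries and stood out in H1993 spheroids. NOTCH3 (ENSG00000074181, chromosome 19, 15159038 to 15200981, hg38) encodes a receptor best known from vascular smooth muscle. It had 24.98 TPM (1218 exonic reads) in A549 spheroids against 18.6 TPM (803 reads) in A549 adherent cells. The H1993 pair had 132 TPM (5275 reads) in spheroids against 21.6 TPM (1036 reads) in the library labelled H1993 adherent. The 3 lower libraries lay close together and H1993 spheroids lay far above them. The log2 fold of spheroid over adherent was 0.54 in A549 (95% counting interval 0.41 to 0.67) and 2.53 (2.44 to 2.63) in the H1993 pair. These intervals cover counting error only. NOTCH3 made up 58.3% of the summed TPM of the 3 receptors in A549 spheroids and 37.6% in A549 adherent cells, and 74.5% in H1993 spheroids and 49.6% in the library labelled H1993 adherent.

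NOTCH1 went in opposite directions in the 2 spheroid and adherent pairs as labelled. NOTCH1 (ENSG00000148400, chromosome 9, 136494444 to 136545862) encodes the receptor that was first linked to cancer through T cell leukaemia. It had 5.05 TPM (259 reads) in A549 spheroids against 12.0 TPM (547 reads) in A549 adherent cells, a log2 fold of -1.14 (-1.36 to -0.93). It had 24.4 TPM (1028 reads) in H1993 spheroids against 5.42 TPM (273 reads) in the library labelled H1993 adherent, a log2 fold of 2.09 (1.90 to 2.29). H1993 spheroids were the highest library and A549 adherent cells the second, while the library labelled H1993 adherent and A549 spheroids did not differ beyond counting error.

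NOTCH2 varied least among the receptors. NOTCH2 (ENSG00000134250, chromosome 1, 119911553 to 120069626), a widely expressed receptor, had 12.8 TPM in A549 spheroids against 18.8 TPM in A549 adherent cells, and 20.8 TPM in H1993 spheroids against 16.6 TPM in the library labelled H1993 adherent. Its log2 folds were -0.44 (-0.56 to -0.33) in A549 and 0.25 (0.15 to 0.36) in the H1993 pair, both under 2-fold. Between 97.6% and 98.4% of its reads were unique, and the rest may be shared with closely similar NOTCH2NL copies. The summed level of the 3 receptors was 42.9 TPM in A549 spheroids and 49.4 TPM in A549 adherent cells, and 177 TPM in H1993 spheroids and 43.6 TPM in the library labelled H1993 adherent. In bulk RNA, fewer cells of a kind and less RNA per cell cannot be told apart.

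**Figure D1:**
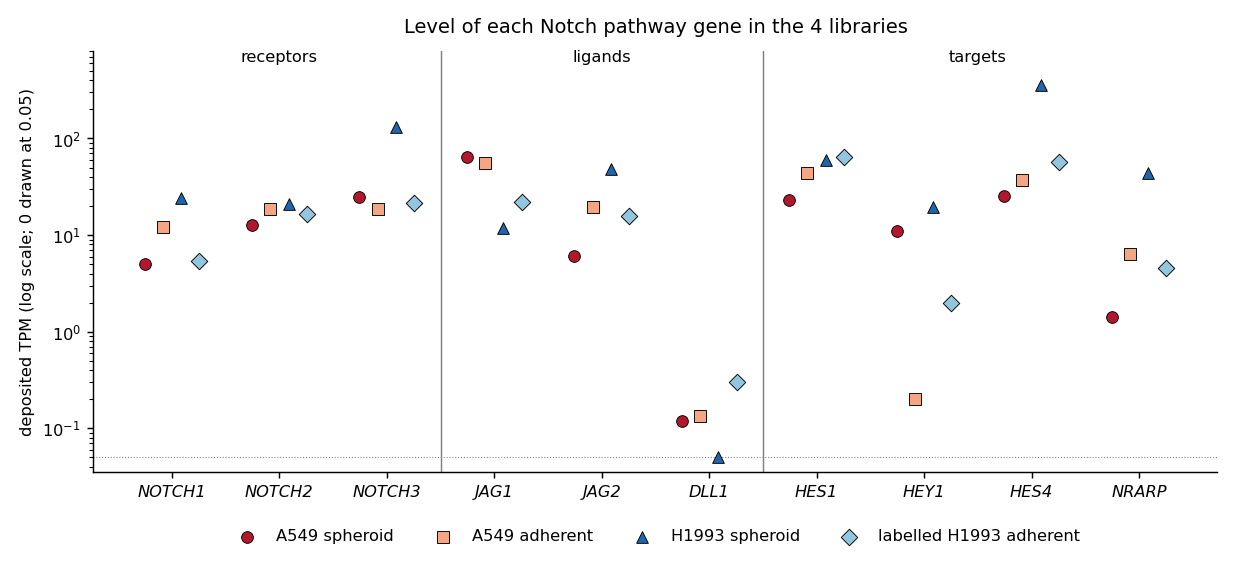
Level of each of the 10 genes in the 4 libraries, in deposited TPM on a log scale, with 1 point per library and a level of 0 drawn at 0.05. NOTCH3 at 132 TPM and HES4 at 360 TPM in H1993 spheroids lie far above the other 3 libraries, and DLL1 lies at 0.304 TPM or less in every library.

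JAG1 had the highest level of the 3 ligands in every library but H1993 spheroids, where JAG2 did. JAG1 (ENSG00000101384, chromosome 20, 10637684 to 10674107) had 64.4 TPM (2852 reads) in A549 spheroids against 55.8 TPM (2193 reads) in A549 adherent cells. It had 11.9 TPM (433 reads) in H1993 spheroids against 22.2 TPM (968 reads) in the library labelled H1993 adherent. All 4 libraries were apart beyond counting error, with both A549 libraries at the top. The log2 fold of JAG1 was 0.32 (0.24 to 0.40) in A549 and -0.97 (-1.14 to -0.81) in the H1993 pair, just under the 2-fold limit, and it was at least 2-fold lower under 3 of 6 other ways of processing.

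JAG2, the other Jagged ligand (ENSG00000184916, chromosome 14, 105140981 to 105168824), had the reverse pattern in the spheroids. It had 6.11 TPM (203 reads) in A549 spheroids against 19.7 TPM (580 reads) in A549 adherent cells, a log2 fold of -1.57 (-1.82 to -1.34). It had 48.7 TPM (1328 reads) in H1993 spheroids against 15.6 TPM (508 reads) in the library labelled H1993 adherent, a log2 fold of 1.57 (1.42 to 1.72). Between 88.0% and 91.0% of its reads were unique, and with unique reads alone its direction and its 2-fold call were kept in both pairs. JAG1 made up 91.2% of the summed TPM of JAG1, JAG2 and DLL1 in A549 spheroids and 73.8% in A549 adherent cells. The share of JAG1 was 19.6% in H1993 spheroids, where JAG2 took 80.4%, and 58.4% in the library labelled H1993 adherent.

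DLL1, a Delta ligand (ENSG00000198719, chromosome 6, 170282206 to 170306565), was at the floor of detection. It had 2 exonic reads in A549 spheroids and 2 in A549 adherent cells, 0 in H1993 spheroids and 5 in the library labelled H1993 adherent. A count of 0 allows up to 3 reads, so no fold is given. The gene overlaps FAM120B, which had 406 to 519 exonic reads per library on the opposite strand, and whether the counting took strand into account is not given in the labels.

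HEY1 was the only 1 of the 9 genes kept by the filter that was at least 2-fold higher in the spheroids of both pairs as labelled. HEY1 (ENSG00000164683, chromosome 8, 79764010 to 79767863) encodes a helix-loop-helix repressor that responds to Notch and, in other settings, to BMP signals. It had 11.1 TPM (187 reads) in A549 spheroids against 0.202 TPM (3 reads) in A549 adherent cells, a ratio of 59.7 with a counting interval of 20.1 to 292. This ratio used no prior count. With the prior count of 2 used for all log2 folds here, the A549 log2 fold was 5.19, which is 36.5-fold. HEY1 had 19.4 TPM (268 reads) in H1993 spheroids against 2.002 TPM (33 reads) in the library labelled H1993 adherent, a log2 fold of 3.13 (2.68 to 3.77). Both spheroid libraries lay above both adherent libraries, and the 2 spheroid libraries were 0.63 apart (0.36 to 0.91, H1993 over A549). Over all genes, 4.7% were at least 2-fold higher in both pairs and 3.9% lower in both.

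Over both lines as labelled, edgeR's quasi-likelihood test with culture and line as terms gave HEY1 a log2 fold of 4.32. By that test its adjusted p was 0.385 (unadjusted p 0.00510), and HEY1 was higher in 2 of 2 pairs as labelled. That test called 0 of 15273 genes (0.0%) at an adjusted p under 0.05, and 1258 genes (8.24%) had an unadjusted p under 0.05, HEY1 and NOTCH3 among them. DESeq2 with the same terms called 591 of 14680 genes (4.03%), among them HEY1 with an adjusted p of 1.26e-04, and none of the other 8 genes. The test has 1 residual degree of freedom and uses the library labelled H1993 adherent. Without the H1993 libraries, the A549 pair alone gave HEY1 a log2 fold of 5.19. NOTCH3 followed with a log2 fold of 1.54 and an adjusted p of 0.602 by edgeR and 0.227 by DESeq2.

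HES1 did not stand higher in spheroids. HES1 (ENSG00000114315, chromosome 3, 194136145 to 194138732) encodes the best studied HES repressor, which blocks neuroendocrine differentiation in the airway. It had 23.2 TPM (248 reads) in A549 spheroids against 43.7 TPM (415 reads) in A549 adherent cells, a log2 fold of -0.80 (-1.04 to -0.58). It had 60.0 TPM (528 reads) in H1993 spheroids against 63.5 TPM (668 reads) in the library labelled H1993 adherent, a log2 fold of -0.16 (-0.32 to 0.01). With the reported scaling the H1993 pair did not differ beyond counting error, and A549 spheroids were the lowest library. Some other ways of processing put HES1 lower in the H1993 pair beyond counting error. These were library size alone (-0.39 to -0.06), no filter on low counts (-0.35 to -0.02) and total gene reads (-0.51 to -0.19). DESeq2 size factors, a prior count of 0.5 and unique exon reads did not.

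HES4 had its own order. HES4 (ENSG00000188290, chromosome 1, 998962 to 1000172), a HES repressor with no mouse counterpart, had 25.7 TPM (149 reads) in A549 spheroids against 37.1 TPM (191 reads) in A549 adherent cells, a log2 fold of -0.42 (-0.74 to -0.10). It had 360 TPM (1715 reads) in H1993 spheroids against 57.4 TPM (327 reads) in the library labelled H1993 adherent, a log2 fold of 2.57 (2.40 to 2.75). With 360 TPM it was the highest of the 10 genes in any library and made up 74.5% of the summed TPM of the 4 targets in H1993 spheroids.

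NRARP showed the largest opposite pair of folds among the 10 genes. NRARP (ENSG00000198435, chromosome 9, 137300482 to 137302251) is a single-exon gene whose ankyrin repeat protein limits Notch signalling. It had 1.42 TPM (13 reads) in A549 spheroids against 6.38 TPM (52 reads) in A549 adherent cells, a log2 fold of -1.91 (-3.06 to -1.17). It had 43.6 TPM (329 reads) in H1993 spheroids against 4.54 TPM (41 reads) in the library labelled H1993 adherent, a log2 fold of 3.12 (2.72 to 3.69). The 2 adherent libraries did not differ beyond counting error.

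**Figure D2:**
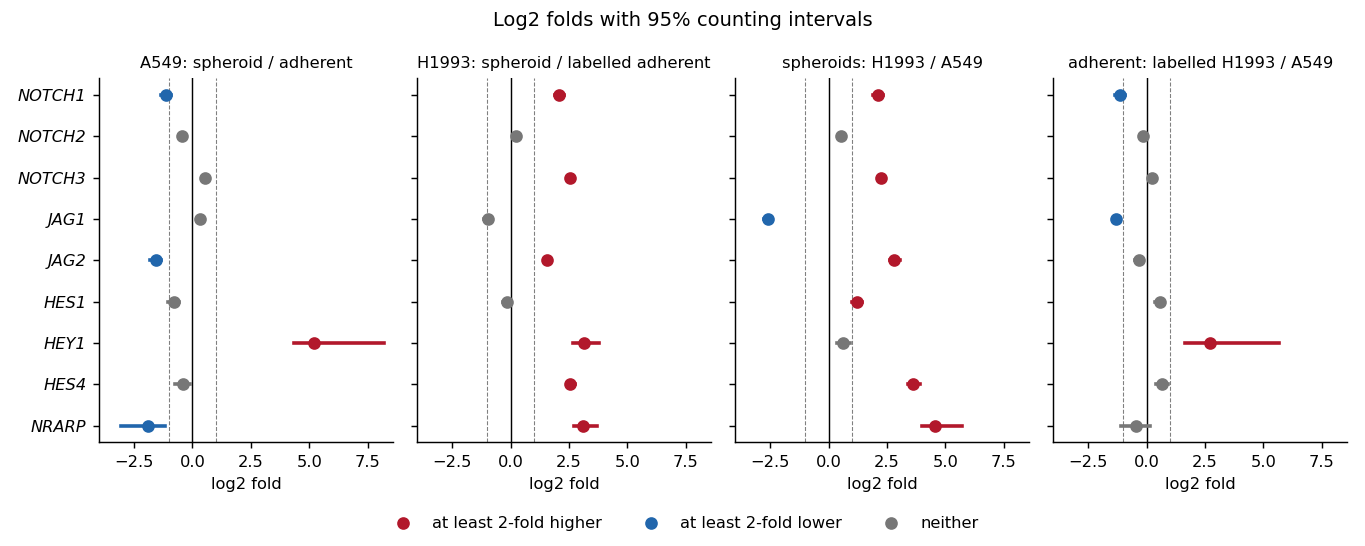
Log2 folds of the 9 genes kept by the filter in 4 comparisons, with 95% counting intervals as bars and the 2-fold limits as dashed lines. HEY1 is at least 2-fold higher in both spheroid pairs, while NOTCH1, JAG2 and NRARP are lower in the A549 pair and higher in the H1993 pair.

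Counted together, 1 of the 9 genes was at least 2-fold higher with an interval excluding no change in A549 spheroids (HEY1), against 12.4% of 15273 genes, and 3 were lower (NOTCH1, JAG2 and NRARP), against 10.3%. In all, 4 of the 9 passed, against 22.7%. The median log2 fold of the 9 genes was -0.44, against 0.00 over all genes. In the H1993 pair as labelled, 6 were higher (NOTCH1, NOTCH3, JAG2, HEY1, HES4 and NRARP), against 17.0% of all genes, and 0 lower, against 18.0% (either way 6, against 35.0%), with a median of 2.09 against 0.00. A fold of at least 2 down in A549 and at least 2 up in the H1993 pair was found for 3 of the 9 genes and for 1.25% of all genes, and opposite folds of either kind for 3.07% of all genes. The difference between the lines was not tested, since each has 1 pair.

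Between the spheroid libraries, H1993 over A549, 6 of the 9 genes passed the rule upwards (18.0% of all genes) and 1 downwards (19.1%), 7 in all (37.1%), with a median log2 fold of 2.10 against 0.01 over all genes. NRARP stood at 4.58 (3.99 to 5.70), HES4 at 3.62 (3.40 to 3.89), JAG2 at 2.82 (2.61 to 3.05), NOTCH3 at 2.23 (2.14 to 2.32), NOTCH1 at 2.10 (1.91 to 2.31) and HES1 at 1.20 (0.99 to 1.43). JAG1 was the lower one at -2.60 (-2.75 to -2.46). Between the adherent libraries as labelled, H1993 over A549, 1 of the 9 was higher (6.94% of all genes) and 2 were lower (5.49%), 3 in all (12.4%). HEY1 was the higher one, 33 against 3 reads, a ratio without prior count of 10.1 (counting interval 3.16 to 51.3). Its log2 fold with the prior count was 2.70. NOTCH1 stood at -1.13 (-1.35 to -0.92) and JAG1 at -1.31 (-1.42 to -1.20). These comparisons share libraries with the spheroid against adherent ones, so their values are not independent of them.

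Reads inside introns, which spliced mRNA lacks, gave another view of the same genes. HES1 had 12 intronic reads in A549 spheroids against 79 in A549 adherent cells, and 21 in H1993 spheroids against 122 in the library labelled H1993 adherent. These were 4.62% (exact 95% interval 2.41 to 7.92) of its gene reads in A549 spheroids against 16.0% (12.9 to 19.5) in A549 adherent cells. They were 3.83% (2.38 to 5.79) in spheroids against 15.4% (13.0 to 18.2) in the library labelled H1993 adherent. The intronic share of HES1 was thus low in both spheroid libraries and high in both adherent ones, without overlap of the intervals. In intronic reads alone, the log2 fold of HES1 was -2.78 (-3.79 to -1.90) in A549 and -2.35 (-3.10 to -1.68) in the H1993 pair, against exonic folds of -0.80 and -0.16.

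Such a lower share in both spheroid libraries, with intervals apart, was found for 4.62% of 10783 genes with enough reads and for 1 of the 6 Notch genes among them, HES1. In A549 spheroids alone it was found for 20.0% of genes and for 2 of the 6 Notch genes, and in H1993 spheroids alone for 11.0% and 2 of the 6. JAG1 was at 4.74% in A549 spheroids against 9.004% in A549 adherent cells. NOTCH1 was at 10.8% in H1993 spheroids against 18.3% in the library labelled H1993 adherent. Over all genes measured this way, the median ratio of the intronic share, spheroid over adherent, was 0.837 in A549 and 0.971 in the H1993 pair. Among the other genes of the lists below, DTX2, MYC, CCND1, CDKN1A, MUC5AC and MUC5B also had a lower intronic share in both spheroid libraries with intervals apart. CDKN1A was at 1.29% in A549 spheroids against 4.33% in A549 adherent cells, and at 2.43% in H1993 spheroids against 7.72% in the library labelled H1993 adherent.

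For the receptors and ligands, intronic and exonic folds had the same sign except for NOTCH3 and JAG1 in A549. The intronic log2 fold of NOTCH1 was -1.57 (-2.19 to -0.99) in A549 and 1.21 (0.75 to 1.67) in the H1993 pair. That of JAG2 was -1.80 (-2.44 to -1.20) in A549 and 1.29 (0.92 to 1.67) in the H1993 pair. NOTCH3 was at 3.27 (2.70 to 3.91) in the H1993 pair and, from 29 against 30 intronic reads, at -0.11 (-0.90 to 0.67) in A549, which does not differ beyond counting error. JAG1 had an intronic fold of -0.67 (-0.99 to -0.36) in A549 beside its exonic fold of 0.32.

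**Figure D3:**
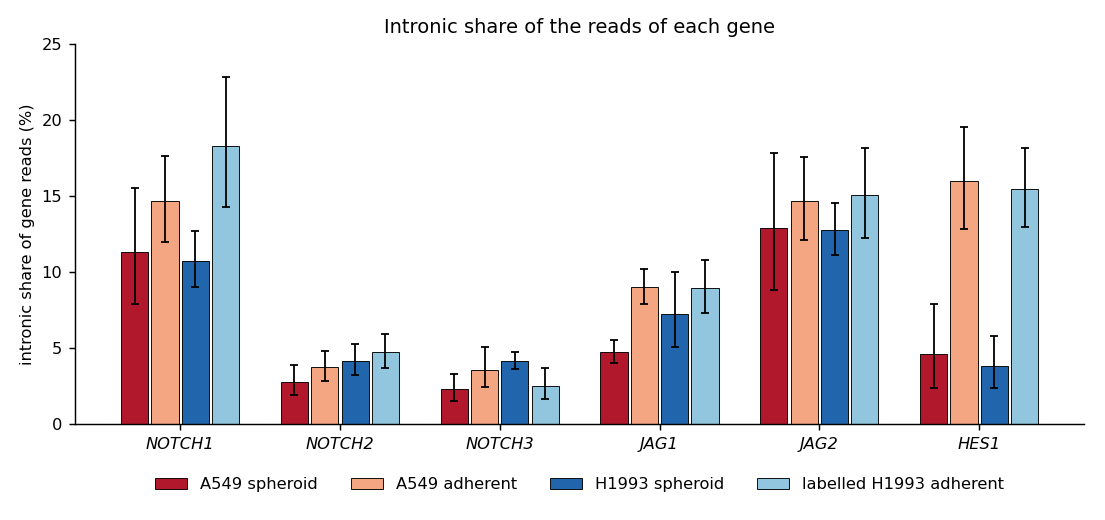
Intronic share of gene reads, in percent, for the 6 Notch genes with enough intronic reads, as 1 bar per library with exact 95% binomial intervals. The HES1 bars stand at 4.62% and 3.83% in the spheroid libraries and at 16.0% and 15.4% in the adherent libraries.

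Several of the genes lie in chromosome stretches that differed as a whole in the H1993 pair. Around HES4, near the end of chromosome 1, the 39 neighbouring genes (up to 25 on each side) had a median log2 fold of 1.63 in the H1993 pair, with 30 of them at least 2-fold higher, beside 2.57 for HES4. In A549 the same neighbours were at 0.14. Around NRARP on chromosome 9 the median of 36 neighbours was 1.36 in the H1993 pair (24 at least 2-fold higher) beside 3.12 for NRARP, and 0.46 in A549 beside -1.91. Around NOTCH1, in a stretch that overlaps that of NRARP, the median of 50 neighbours was 1.20 in the H1993 pair (30 at least 2-fold higher) beside 2.09 for NOTCH1, and 0.10 in A549 beside -1.14.

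JAG1 lay in a stretch of chromosome 20 where 32 of 50 neighbours were at least 2-fold lower in the H1993 pair. Their median was -1.34 beside -0.97 for JAG1, and 64.0% of them stood below it. Around NOTCH3 and JAG2 the neighbours differed less in the H1993 pair, with medians of 0.31 beside 2.53 for NOTCH3 and -0.12 beside 1.57 for JAG2. HEY1 stood above all 50 of its neighbours in A549 (median 0.20) and above 94.0% of them in the H1993 pair (median 0.54). Between the spheroid libraries, H1993 over A549, the neighbours had medians of 1.81 around HES4 (34 of 39 higher) and -1.30 around JAG1 (33 of 50 lower). In that comparison the medians were 0.80 around NRARP, 0.43 around NOTCH1, 0.77 around NOTCH3, -0.01 around JAG2 and 0.55 around HEY1. The part of these stretches in the folds of single genes was not tested.

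**Figure D4:**
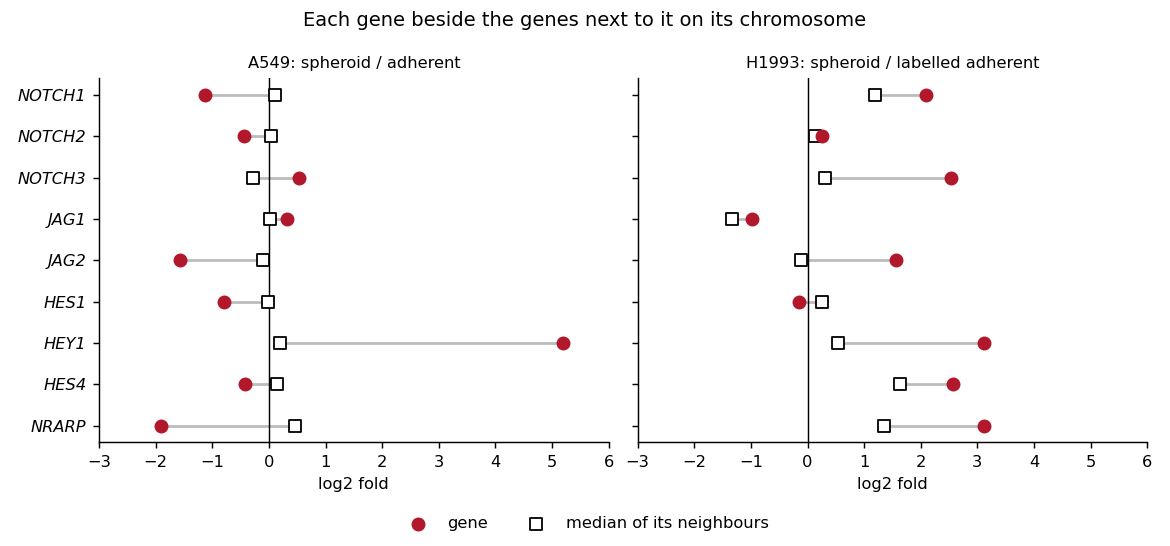
Log2 fold, spheroid over adherent, of each gene (filled circles) and the median of up to 25 kept genes on each side of it on its chromosome (open squares), for A549 on the left and the H1993 pair as labelled on the right. In the H1993 pair the neighbours of HES4, NRARP and NOTCH1 have medians of 1.63, 1.36 and 1.20, and those of JAG1 a median of -1.34.

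Of 72 further Notch pathway genes, 64 passed the filter. Past the 2-fold rule, A549 spheroids had 5 of these higher and 9 lower (median log2 fold 0.01), and the H1993 pair had 12 higher and 11 lower (median -0.20). Over all genes, 12.4% were higher and 10.3% lower in A549, and 17.0% higher and 18.0% lower in the H1993 pair, so the counts in the H1993 pair lie near the share over all genes. The medians over all genes were 0.00 in both.

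The lists of genes that modify and cut the receptors are to be read beside 22.7% of all genes past the 2-fold rule in A549 and 35.0% in the H1993 pair. In A549 spheroids, 1 of 8 glycosylation genes was higher and 0 lower. It was LFNG, a Fringe enzyme that changes which ligands a receptor answers to, with 28.0 TPM (496 reads) in A549 spheroids against 9.98 TPM (157 reads) in A549 adherent cells, a log2 fold of 1.58 (1.33 to 1.86). In the H1993 pair LFNG was at 0.78, and 2 of the 8 were higher, MFNG at 2.41 (1.56 to 4.14, from 41 and 7 reads) and RFNG, the third Fringe, at 1.10 (0.93 to 1.28). GXYLT2, a xylosyltransferase, was the 1 lower gene, with 3 reads in H1993 spheroids against 106 in the library labelled H1993 adherent.

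Of 9 cleavage genes, FURIN, which makes the first cut of the receptor in the Golgi, was the 1 that was higher in A549 spheroids at 1.43 (1.34 to 1.52), and 0 were lower. In the H1993 pair 0 were higher and 2 lower, both of gamma-secretase, with APH1B at -2.59 (-2.995 to -2.26) and PSENEN at -1.04 (-1.20 to -0.88). ADAM10, the protease that cuts the bound receptor, was at -0.61 in A549 and -0.70 in the H1993 pair.

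Among 13 genes of ubiquitination and trafficking, 1 was higher and 2 lower in A549 spheroids, and 3 were higher and 0 lower in the H1993 pair. Over all genes, 22.7% in A549 and 35.0% in the H1993 pair passed either way. NEURL1B, a ligase that acts on ligands, had 8 reads in A549 spheroids against 158 in A549 adherent cells, a log2 fold of -4.06 (-5.60 to -3.35), and DTX2, a Deltex protein, was at -1.11. MIB2, a Mind bomb ligase for ligands, was at 2.10 (1.94 to 2.29) in the H1993 pair and DTX4, another Deltex protein, at 1.73 (1.54 to 1.94). MIB1, the main ligase for ligands, was at 0.19 in A549 and 0.96 in the H1993 pair. NEURL1, the other Neuralized gene, was higher in both pairs, at 1.73 (0.64 to 3.83) in A549 and 2.13 (0.87 to 6.17) in the H1993 pair, from 2 to 22 reads.

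RBPJ, the DNA-binding core of the nuclear complex, was at 0.32 (0.18 to 0.47) in A549 and 0.78 (0.66 to 0.92) in the H1993 pair. Of the 16 genes of that complex and its corepressors, 0 were higher and 1 lower in A549 spheroids, and 2 were higher and 3 lower in the H1993 pair, against 22.7% of all genes either way in A549 and 35.0% in the H1993 pair. TLE4, a Groucho corepressor, was the lower one in A549 at -1.89 (-2.23 to -1.61) and was also lower in the H1993 pair at -3.02 (-3.39 to -2.73). Its relatives TLE2 and TLE3 were higher in the H1993 pair at 2.56 (2.39 to 2.76) and 1.62 (1.48 to 1.76). The Mastermind genes MAML2 and MAML3 were lower there at -1.05 and -2.44, while MAML1 was under 2-fold.

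Of 9 other ligands and receptors, 4 passed the filter. DLL4, an activating Delta ligand that did not pass and is named here after its values were seen, had 7 reads in A549 spheroids against 5 in A549 adherent cells, and 3 in H1993 spheroids against 79 in the library labelled H1993 adherent. Of the 4 kept, 1 was higher and 0 lower in A549 spheroids, and 0 were higher and 3 lower in the H1993 pair. Over all genes, 22.7% in A549 and 35.0% in the H1993 pair passed the 2-fold rule either way. DNER, a Notch-binding membrane protein of neurons, was higher in A549 spheroids at 1.94 (1.40 to 2.68). In the H1993 pair DLL3, a Delta-like protein that does not activate Notch, was lower at -1.98 (-2.68 to -1.46), DLK2 at -1.19 and CNTN1, a contactin reported to bind Notch, at -3.98 (-4.10 to -3.87). Of 7 other HES and HEY genes, 4 passed the filter. Beside the same 22.7% and 35.0%, 0 of the 4 were past the 2-fold rule in A549 and 1 in the H1993 pair. That 1 was HES2, at 3.77 (3.32 to 4.46), from 372 reads in H1993 spheroids and 29 in the library labelled H1993 adherent. HES3, HES5 and HEY2 had 0 to 4 reads in each library.

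Of 11 other genes reported to respond to Notch in some cell types, many of which have other regulators, 1 was higher and 6 lower in A549 spheroids, against 12.4% and 10.3% of all genes, with a median of -1.44. In the H1993 pair 4 were higher and 2 lower, against 17.0% and 18.0%, with a median of 0.75. SOX9, a progenitor factor, was higher in both, at 1.96 (1.83 to 2.11) in A549 and 2.52 (2.36 to 2.69) in the H1993 pair. ID1, an inhibitor of helix-loop-helix proteins that is induced by BMP, was lower in both, at -2.03 (-2.12 to -1.94) and -4.37 (-4.64 to -4.15). MYC, a growth regulator, was at -1.56 (-1.71 to -1.42) in A549 and 1.57 (1.46 to 1.68) in the H1993 pair, BCL2, a survival protein, at -2.27 and 3.15, and GATA3 at -1.44 and 1.37.

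**Figure D5:**
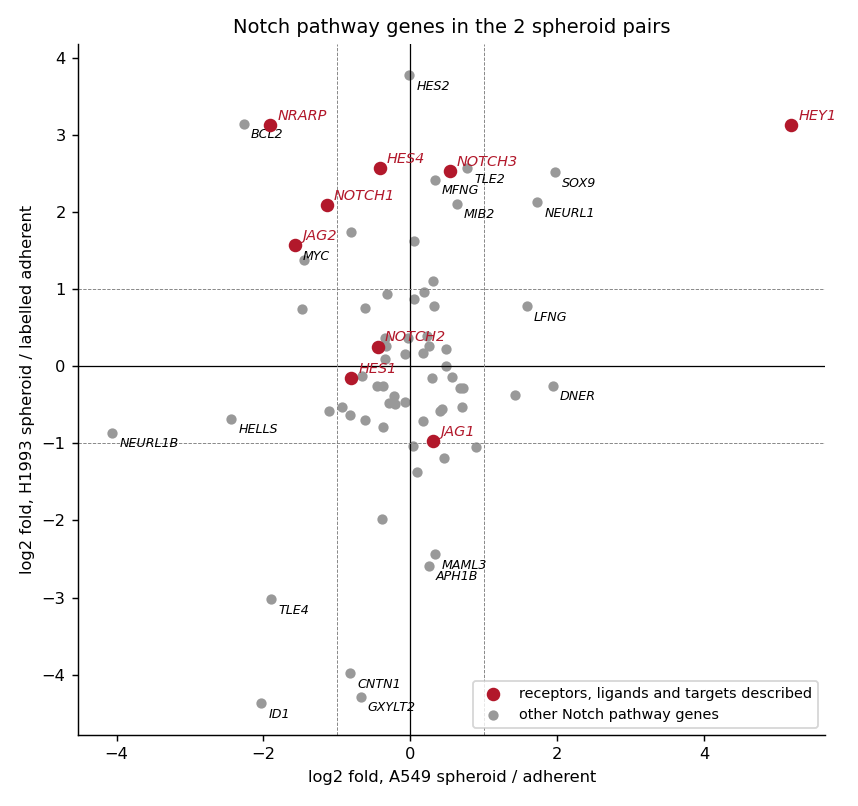
Log2 fold, spheroid over adherent, in the H1993 pair as labelled (vertical) against A549 (horizontal), with the 9 genes described in red, the further Notch pathway genes in grey and the 2-fold limits dashed. HEY1 and SOX9 lie at the upper right, and NRARP, BCL2, NOTCH1, JAG2 and MYC at the upper left.

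Of the airway fates that Notch balances, 3 of 6 secretory genes passed the filter. Of these, 3 were at least 2-fold higher in A549 spheroids, against 12.4% of all genes, and 2 in the H1993 pair, against 17.0%. Between the spheroid libraries, H1993 over A549, all 3 were lower (19.1% of all genes), with a median log2 fold of -3.63. Between the adherent libraries as labelled, H1993 over A549, all 3 were also lower (5.49%), with a median of -2.40. These counts say nothing of the 3 genes that did not pass. The mucin MUC5AC was at 5.76 (5.71 to 5.81) in A549 and 4.33 (4.11 to 4.60) in the H1993 pair. Of 6 neuroendocrine genes only SYP passed the filter, at -0.86 in A549 and -2.80 (-3.45 to -2.34) in the H1993 pair. Of 6 multiciliated genes 3 passed, with 0 higher and 2 lower in A549 spheroids and 1 higher and 0 lower in the H1993 pair. Over all genes, 12.4% were higher and 10.3% lower in A549, and 17.0% higher and 18.0% lower in the H1993 pair. FOXJ1, the ciliated cell factor, had 0 to 4 reads. Of 4 basal genes only TP63 passed, at 1.79 (1.52 to 2.11) in A549 and -1.59 (-2.68 to -0.84) in the H1993 pair.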

How the data were processed

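Each of the 4 samples was 1 library made with a stranded mRNA kit, per the labels' protocols, and the labels gave line and culture. The genome build was hg38, per the submitters' processing notes. Which annotation, aligner and read counter were used is not given in these sources. Per the file headers, the deposited tables hold read counts per gene (total and unique reads over exons, introns and junctions), TPM and RPKM, beside fractions (ratios of intronic and of unique reads) made by the authors. The deposited TPM served for levels, RPKM and the deposited fractions were not used, and intronic shares were recomputed from counts. Positions are those of the files, and 8 of the 10 genes had the same start and end in GENCODE release 29.

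The filter on low counts was filterByExpr, which left 15273 genes, and libraries were scaled by TMM (edgeR 4.0.16, R 4.3.3). Log2 folds used a prior count of 2, so folds of low genes are drawn towards 0. Intervals were exact 95% Clopper-Pearson intervals of the 2 counts. A gene counted as higher or lower at 2-fold or more with an interval excluding no change, which compares 2 libraries, not 2 conditions. The quasi-likelihood test of edgeR (glmQLFit, glmQLFTest) took culture and line as terms over the 4 libraries, with DESeq2 1.42.0 as the alternative and Benjamini-Hochberg adjustment over all genes. That script was also run on simulated data with no difference between the lines, and the outcome is not given here. The run is no measure of what the test can detect in these libraries. Nor does it bear on whether the label of the H1993 adherent library holds. Intronic shares used genes with at least 50 gene reads in each library and 20 intronic reads in all. Nothing says that libraries came from separate cultures, and PCR duplicates are not told apart, so intervals and floors cover counting error only, where 3 reads are 0.170 to 0.196 CPM of exonic reads.

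The text names the 10 genes and, from lists of the wider pathway and airway fates, genes past the 2-fold rule and a few beside them. Members and lists were chosen with earlier results of these data known, so their counts carry no test.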

Additional observations from a re-analysis of the deposited data

Results flagged for a closer look

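Each gene below was at least 2-fold apart in both spheroid pairs, in opposite directions. Each line has 1 pair, so the difference between the lines was not tested, and the H1993 values rest on the library labelled H1993 adherent. Among the receptors, ligands and targets, the log2 fold of NOTCH1 was 2.09 in the H1993 pair and -1.14 in A549, that of JAG2 1.57 and -1.57, and that of NRARP 3.12 and -1.91. Among genes reported to respond to Notch, MYC was at 1.57 in the H1993 pair and -1.56 in A549, BCL2 at 3.15 and -2.27, and GATA3 at 1.37 and -1.44. Among the airway genes, MYB was at 1.27 in the H1993 pair and -3.20 in A549, where it had 0 reads in spheroids against 16 in adherent cells, so that this fold depends on the prior count. TP63, a basal cell factor, ran the other way, at -1.59 in the H1993 pair and 1.79 in A549.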

How the results depend on the processing

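Across scaling by library size alone, DESeq2 size factors, no filter on low counts, a prior count of 0.5, unique exon reads and total gene reads, 213 of 216 recomputed folds of the 9 genes kept their direction and their side of the 2-fold limit. The exceptions were JAG1 in the H1993 pair, at -1.04 with library size alone, -1.005 with no filter and -1.005 with total gene reads, so that 1 of the 9 genes was lower there in place of 0 under each of these settings. With library size alone the median of all genes was -0.11 in A549, -0.07 in the H1993 pair, 0.09 between the spheroids and 0.05 between the adherent libraries. Over both lines, edgeR called 0 genes in the reported fit, 173 with no filter on low counts and 591 genes were called by DESeq2, and HEY1 was the 1 Notch gene called under either, with adjusted p-values of 0.048 and 1.26e-04. Its adjusted p-values under the other alternatives ran from 0.362 to 0.617. The cause was not tested. The fit over both lines paired the libraries by line, and without that block 0 genes were called; the labels give no replicate numbers to pair by. Leaving out either line leaves the fold of the other pair, with no test. Depth limits DLL1 in every library, and HEY1 and NRARP where they had under 50 reads.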
